A study of Mus musculus with 5 samples.

Results

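Platelet-derived growth factor (PDGF), fibroblast growth factor (FGF) and hepatocyte growth factor (HGF) signalling was followed through the cell types of mouse skin by 10 genes chosen for their known roles: the ligands Pdgfa, Pdgfb, Fgf7, Fgf10 and Hgf and the receptors Pdgfra, Pdgfrb, Fgfr2, Fgfr3 and Met, out of 27998 genes in the tables. For each gene the source or receiving cell types were sought, and un-wounded skin was compared with wounded skin. All libraries came from skin of C57BL/6 mice, dissociated, sorted for live cells and captured in droplets with 10x Genomics 3' v1 chemistry, which counts each captured transcript once by a unique molecular identifier (UMI). The un-wounded group had 2 libraries of normal skin, for which the labels give no age, and the wounded group had 3. For the wounded group, mice of 7 weeks were given a 6-mm punch wound, and 4 days afterwards the whole wound region was cut out with a 10-mm punch. Nothing in the labels ties a library to 1 mouse or to a pool, so p-values measure the spread between these libraries, which may be technical. No gene was deleted and no agent was given in either group.

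All of these receptors are receptor tyrosine kinases, which signal through the RAS-ERK and PI3K pathways when a ligand brings them together. In skin, PDGF made by the epidermis and by vessels acts on fibroblasts and pericytes, FGF7 (keratinocyte growth factor) and FGF10 made by the dermis act on the epithelial splice form of FGFR2, and HGF made by mesenchymal cells acts on MET of epithelial and other cells. The 3' counts do not separate the epithelial and mesenchymal splice forms of Fgfr2.

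After filtering, 25597 of 27317 cell barcodes were kept, between 3986 and 7057 a library, with a median of 6026 to 7939.5 UMIs a cell. They fell into 31 clusters, of which 28 took the name of 1 of 15 cell classes from marker genes. The 10 genes and 70 further pathway genes were left out of the clustering and of the marker lists, so that no class was defined by them. Levels are given as CPM, the gene's share of the UMIs (as counts per 1000000 UMIs) of all cells of that class in that library, and are compared between classes and groups, never between genes. Libraries of a group differed widely in makeup. Fibroblasts were 9.6% and 40.2% of un-wounded cells, basal keratinocytes were 24.5%, 2.35% and 4.77% of wounded cells, and wounded library 1 held 591 of the 782 pericytes or smooth muscle cells. Between 26 and 63 barcodes were shared by any 2 libraries. Of the named classes, 10 had at least 15 cells in every library and were tested with edgeR's quasi-likelihood test on summed UMIs, adjusted by Benjamini-Hochberg over all genes tested in the class. A gene is called changed at an adjusted p under 0.05. The vascular endothelial class was led by Ccl21a, a marker of lymphatic vessels, beside Cdh5, Emcn and Pecam1, so lymphatic cells were not separated from it.

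The sequences just upstream of the transcription starts are shown for 4 of the genes described below. These are a ligand and a receptor of the FGF axis with dermal and epithelial sources (Fgf7, Fgfr2), the second epithelial FGF receptor (Fgfr3), and the ligand that was highest in mast cells (Hgf). No link between these sequences and the levels was tested. RefSeq (GRCm38.p6) gave an entry for 8 of the 10 genes. Each run is the 250 bases before the start on the gene's strand, and capitals mark a GC box (GGGCGG, or CCGCCC where it lies on the other strand). An AP-1 site was searched as TGANTCA on both strands. The letters AGATAA stood for a GATA site. An E-box was searched as CACGTG, likewise on both strands, and no match overlapped another.
Fgf7, chr2:126034408-126034657, plus strand: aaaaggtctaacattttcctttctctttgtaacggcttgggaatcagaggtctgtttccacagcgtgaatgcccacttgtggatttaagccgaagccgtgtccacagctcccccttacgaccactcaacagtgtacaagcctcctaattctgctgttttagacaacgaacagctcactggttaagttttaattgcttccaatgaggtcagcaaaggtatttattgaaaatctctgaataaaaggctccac
Fgfr2, chr7:130266809-130267058, minus strand: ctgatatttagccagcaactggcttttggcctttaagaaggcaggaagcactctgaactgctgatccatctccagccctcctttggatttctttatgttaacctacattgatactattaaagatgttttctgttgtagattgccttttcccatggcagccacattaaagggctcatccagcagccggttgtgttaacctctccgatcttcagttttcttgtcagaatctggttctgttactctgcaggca
Fgfr3, chr5:33721474-33721723, plus strand, the first of 2 listed starts: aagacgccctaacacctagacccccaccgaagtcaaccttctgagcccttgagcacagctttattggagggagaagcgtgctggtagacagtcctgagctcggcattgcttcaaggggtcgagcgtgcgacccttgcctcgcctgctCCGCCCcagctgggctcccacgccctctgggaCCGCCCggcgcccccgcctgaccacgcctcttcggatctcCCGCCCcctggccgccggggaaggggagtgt
Hgf, chr5:16553245-16553494, plus strand, the first of 2 listed starts: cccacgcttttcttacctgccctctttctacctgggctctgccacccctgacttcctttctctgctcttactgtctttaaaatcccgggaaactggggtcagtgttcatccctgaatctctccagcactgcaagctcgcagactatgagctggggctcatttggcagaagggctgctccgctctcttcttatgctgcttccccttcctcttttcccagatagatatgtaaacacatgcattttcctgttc
The Fgfr3 run held 3 GC boxes and was 66.8% G or C. The runs of Fgf7 (43.6% G or C), Fgfr2 (44.0%) and Hgf (50.8%) held none of the 4 motifs. Among 27018 promoters of the same length, 32.9% held a GC box, 6.87% an AP-1 site, 10.3% a GATA site and 6.05% an E-box, so the GC box is a common match.

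Among the ligands, Pdgfa, which signals mainly through PDGF receptor alpha, was highest in pericytes or smooth muscle cells at 398 CPM (5 libraries pooled, counting interval 384 to 413). Outer root sheath or bulge keratinocytes, the cells that line and renew the hair follicle, followed at 196 CPM, then skeletal muscle cells at 72.3 and basal keratinocytes at 64.0 CPM, while fibroblasts had 7.74 CPM. Ranges over libraries of neighbours among the first 4 overlapped, apart from outer root sheath or bulge keratinocytes and skeletal muscle cells. Of the 3026 Pdgfa UMIs of pericytes or smooth muscle cells, 2332 came from wounded library 1. In un-wounded skin their 179 and 236 CPM overlapped the 199 and 211 CPM of outer root sheath or bulge keratinocytes. In the fit of all tested classes with library as a block, 37.6% of 10666 genes differed between pericytes and fibroblasts, and 5 of the 8 fitted genes did. Pdgfa was higher in pericytes by 5.21 ± 0.29 (log2, SE, adjusted p = 1.57e-19, edgeR).

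**Figure D1:**
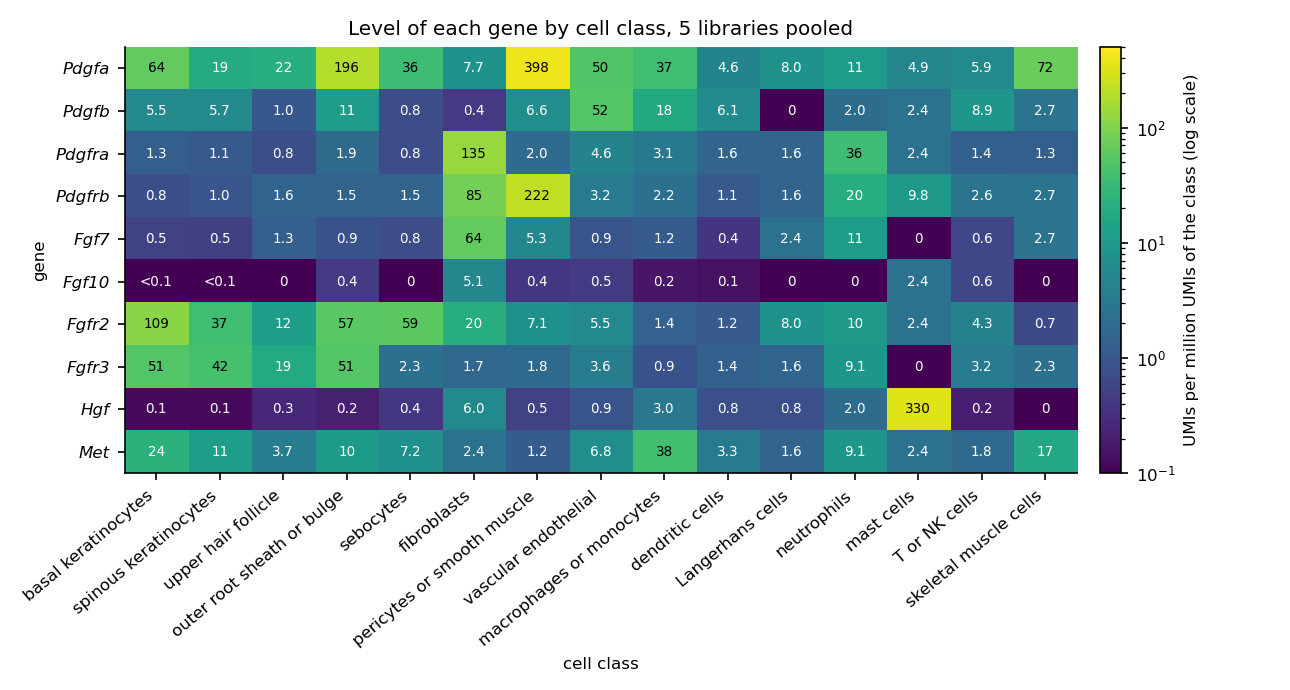
Level of each of the 10 genes (rows) in each of 15 named cell classes (columns), in CPM with 5 libraries pooled, coloured on a log scale. Pdgfra, Fgf7 and Fgf10 peak in fibroblasts, Pdgfa and Pdgfrb in pericytes or smooth muscle cells, Fgfr2 and Fgfr3 in basal keratinocytes, Hgf in mast cells at 330 and Met in macrophages or monocytes.

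In pericytes or smooth muscle cells, Pdgfa stood at 179 and 236 CPM in the un-wounded libraries (33 and 42 UMIs). The wounded libraries had 410, 383 and 400 CPM (2332, 108 and 511 UMIs), so the groups did not overlap. The rise was 0.93 ± 0.25 on the log2 scale (adjusted p = 0.0333, edgeR), in a class where 17.3% of 3990 genes passed and 28.4% had all wounded libraries above all un-wounded ones. The adjusted p was between 0.0543 and 0.244 when any 1 of the 5 libraries was left out, and 0.0798 without the 2 highest cells of each library. The makeup of the class moved with the result. At finer clustering, the part with low Myh11 held 6 of 49 and 4 of 29 un-wounded cells, and 439 of 591, 12 of 26 and 72 of 87 wounded cells. In the part with high Myh11, a contractile gene of smooth muscle, Pdgfa stood at 190 and 241 CPM un-wounded and 409, 350 and 258 CPM wounded. These levels rested on 32 and 40 UMIs un-wounded and 367, 29 and 31 UMIs wounded. The groups did not overlap, but the 258 CPM of wounded library 3 lay near the 241 CPM of un-wounded library 2 on such counts. In the part with low Myh11 the un-wounded libraries held 1 and 2 Pdgfa UMIs. The part of this shift in the result was not tested further.

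In basal keratinocytes, the stem cell layer of the epidermis, Pdgfa stood at 62.3 and 103 CPM un-wounded and at 38.0, 70.3 and 38.9 CPM wounded. The groups overlapped, and the difference of -0.64 ± 0.33 was not called (adjusted p = 0.878). Outer root sheath or bulge keratinocytes had 199 and 211 CPM un-wounded and 179, 218 and 113 CPM wounded, with the wounded libraries on both sides. Spinous keratinocytes, one layer up, held less Pdgfa than basal ones by 1.76 on the log2 scale (fitted difference -1.76 ± 0.27, adjusted p = 1.90e-06), where 22.4% of genes differed. Spinous keratinocytes had 22.4 and 22.0 CPM of Pdgfa un-wounded and 14.1, 2.11 and 12.6 CPM wounded. Upper hair follicle keratinocytes had 20.5 and 34.0 CPM un-wounded and 16.8, 6.73 and 11.5 CPM wounded. Sebocytes, the lipid-making cells of the sebaceous gland, had 52.2 and 52.3 CPM un-wounded and 23.9, 33.8 and 26.7 CPM wounded. In these 3 classes all wounded libraries were lower, as for 20.9%, 13.4% and 9.81% of genes there, and none of the differences was called (adjusted p = 0.585, near 1 and 0.854, edgeR). The wounded levels rested on 92, 1 and 25 UMIs in spinous and 17, 1 and 3 in upper hair follicle keratinocytes. In sebocytes they rested on 28, 5 and 8 UMIs. For upper hair follicle keratinocytes, the counting interval of wounded library 2 (0.170 to 37.5 CPM) took in both un-wounded levels.

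These levels, with the number of cells, set which class held most of the Pdgfa message. Basal keratinocytes held 63.3% and 52.0% of all Pdgfa UMIs in the un-wounded libraries but 12.8%, 5.69% and 7.27% in the wounded ones. Pericytes or smooth muscle cells held 2.15% and 2.11% un-wounded, and 65.8%, 16.2% and 39.9% wounded. Neither the basal nor the pericyte share overlapped between groups. Macrophages or monocytes held 0.0653% and 0.151% un-wounded and 1.72%, 21.6% and 17.2% wounded, at 35.0, 43.4 and 33.9 CPM wounded. Outer root sheath or bulge keratinocytes held 7.38% and 26.1% un-wounded and 2.96%, 19.3% and 4.30% wounded. Both of these classes held more than pericytes in wounded library 2. The unnamed clusters held 10.1% and 2.81% un-wounded and 3.13%, 11.5% and 4.22% wounded. The exact two-sided permutation test gave p = 0.1 for the basal share, the smallest that 10 assignments of 5 libraries allow, and p = 0.2 for the pericyte share, both 0.311 after adjustment over 28 shares. Cell numbers moved with the basal share: basal keratinocytes were 48.8% and 26.3% of un-wounded cells and 24.5%, 2.35% and 4.77% of wounded cells. Pericytes or smooth muscle cells were 0.974% and 0.565% of un-wounded cells and 8.37%, 0.592% and 2.18% of wounded cells. Their share of cells in wounded library 2 thus lay within the un-wounded range, while their share of Pdgfa UMIs there was 16.2%. That share also depends on the other classes. Over all kept cells, wounded library 2 had 21.4 CPM of Pdgfa, against 48.6 and 52.0 CPM un-wounded. The parts of level, cell number and other classes in the share were not tested.

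Pdgfb, the ligand of vessel walls that recruits pericytes through PDGF receptor beta, was highest in vascular endothelial cells at 52.3 CPM (pooled, counting interval 43.2 to 62.8), above macrophages or monocytes at 17.8. Per library the endothelial level was 29.3 and 69 CPM un-wounded (2 and 8 UMIs) and 48.9, 88.0 and 49.3 CPM wounded (48, 14 and 43 UMIs). The groups overlapped, the fitted change was 0.10 ± 0.62 (adjusted p = 0.970), and 0.814% of 2456 genes were called in this class. Basal keratinocytes held 55.6% and 37.7% of Pdgfb UMIs in un-wounded skin, at a low level of 4.45 to 7.40 CPM over the 5 libraries. In wounded skin macrophages or monocytes held 12.8%, 40.6% and 43.6% of them, against 0.662% and 0.546% un-wounded (1 UMI each, from 4 and 39 such cells). The exact two-sided permutation test gave p = 0.2 for this share (0.311 adjusted over the 28 shares), and its wounded mean went from 32.4% to 17.8% at Leiden resolution 2.0.

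**Figure D2:**
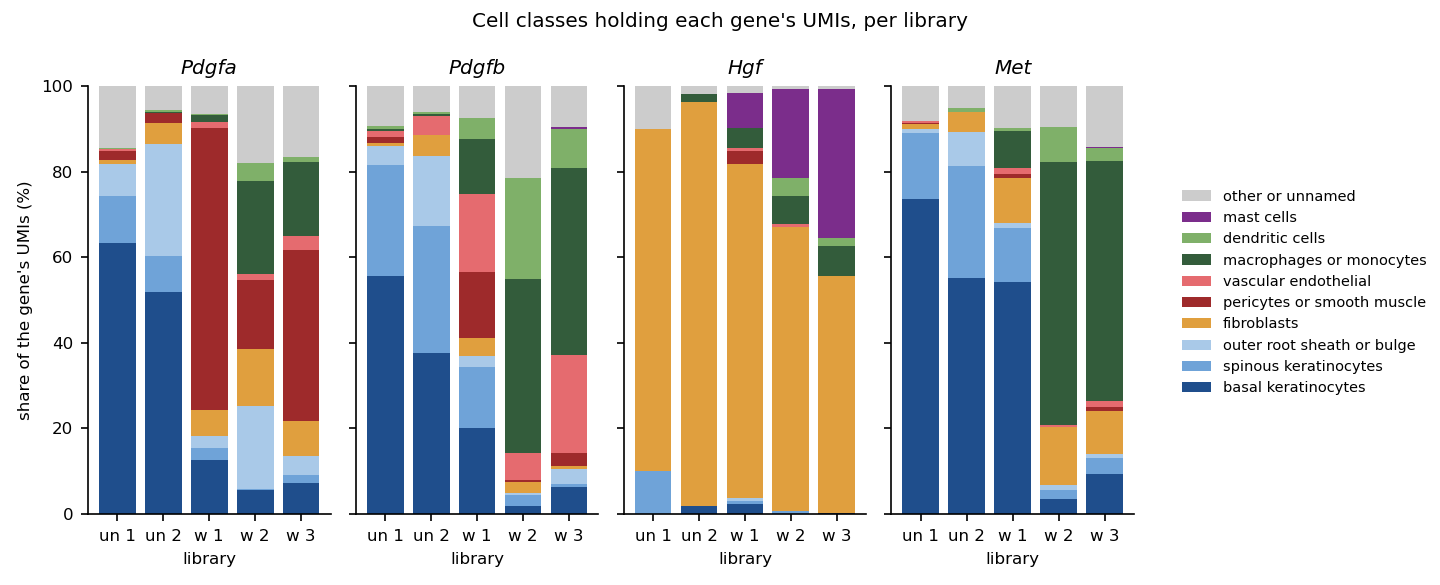
Share of all UMIs of Pdgfa, Pdgfb, Hgf and Met (vertical axis, percent) held by each cell class in un-wounded libraries 1 and 2 (un) and wounded libraries 1 to 3 (w). For Pdgfa, Pdgfb and Met the keratinocyte classes hold most UMIs in both un-wounded libraries and fewer in wounded libraries 2 and 3, while mast cells appear for Hgf in the 3 wounded libraries.

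On the receiving side of PDGF, Pdgfra, the alpha receptor that marks dermal fibroblasts, was found at 135 CPM in fibroblasts and at 0.759 to 4.55 CPM in the other named classes except neutrophils. Fibroblasts exceeded basal keratinocytes by 6.40 ± 0.26 on the log2 scale (adjusted p = 7.66e-25). In that contrast 66.6% of 10666 genes differed, and all 8 fitted genes of the set were among them. Fibroblast Pdgfra stood at 81.5 and 119 CPM un-wounded and 131, 161 and 137 CPM wounded. All wounded libraries lay above the un-wounded ones, as for 18.1% of genes in this class, and the difference of 0.60 ± 0.25 was not called (adjusted p = 0.198). Neutrophils showed 43.6 and 58.1 CPM in wounded libraries 2 and 3 and no UMI in wounded library 1. The summed level of the 7 fibroblast markers in neutrophils was 11868 and 34111 CPM in those libraries and 3321 CPM in library 1, so fibroblast RNA moved with Pdgfra there. With 3.67 and 1.70 Pdgfra UMIs per 1000 fibroblast-marker UMIs, neutrophils of those libraries were near the 2.46 and 3.20 of the fibroblasts of those libraries. The part of fibroblast RNA in the neutrophil level was not tested.

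Pdgfrb, the beta receptor of mural cells, was highest in pericytes or smooth muscle cells (222 CPM) and next in fibroblasts (85.5 CPM), a fitted difference of 0.91 ± 0.18 on the log2 scale (adjusted p = 6.98e-05). Pericyte Pdgfrb stood at 147 and 146 CPM un-wounded, on 27 and 26 UMIs. It stood at 225, 220 and 226 CPM wounded, clear of the un-wounded libraries, as for 28.4% of genes in this class. The difference of 0.60 ± 0.23 was not called (adjusted p = 0.108, edgeR). Within the part with high Myh11 the un-wounded libraries had 113 and 139 CPM and the wounded ones 187, 133 and 175 CPM, which overlap. In fibroblasts Pdgfrb stood at 75.9 and 74.4 CPM un-wounded and 74.7, 98.6 and 96.5 CPM wounded, with 1 wounded library between the un-wounded ones, a change of 0.37 ± 0.23 (adjusted p = 0.403).

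Among fibroblasts the PDGF receptors varied by cluster. Pdgfra was highest in cluster 21 (224 CPM, led by Cxcl13, Thbs4 and Sfrp4) and lowest in cluster 14 (91.4 CPM, led by Cxcl5, Cthrc1, Timp1 and Tnc, an extracellular matrix gene). Both clusters were more than 3 times as frequent in wounded skin, at 5.69% and 6.79% of cells on average against 0.479% and 0.0390%. Pdgfrb was highest in cluster 16 (179 CPM), which was led by Coch, Dkk2, Wif1 and Crabp1 and had a similar share in both groups (3.81% and 5.67%), and was lowest in cluster 14 (48.5 CPM).

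**Figure D3:**
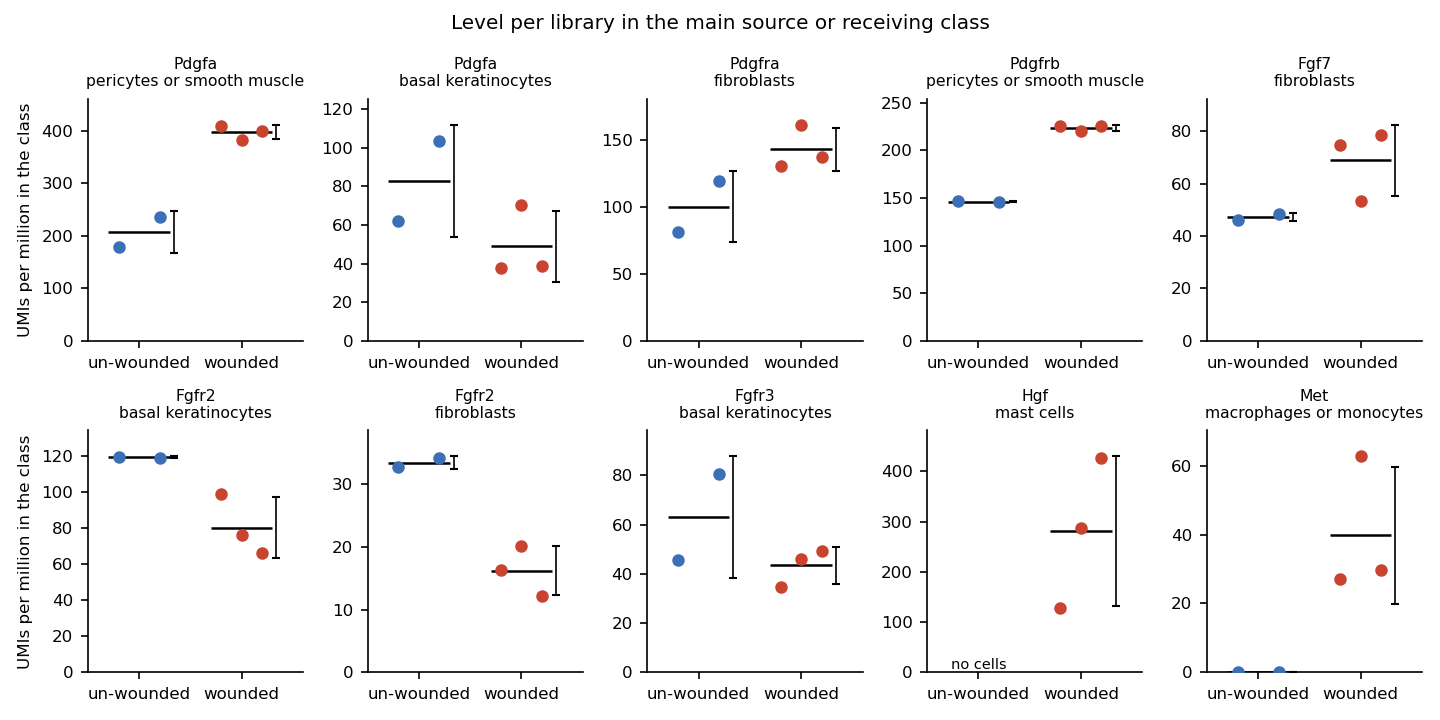
Level per library (points) of 8 of the genes in 10 pairs of gene and class, in CPM, for un-wounded (2 libraries) and wounded skin (3 libraries); lines are means and bars the SD. All wounded libraries lie above the un-wounded ones for Pdgfa and Pdgfrb in pericytes, as for 28.4% of genes there. The same holds for Pdgfra and Fgf7 in fibroblasts (18.1%). All wounded libraries lie below for Fgfr2 in fibroblasts (22.0%) and in basal keratinocytes (20.6%). Met in un-wounded macrophages or monocytes is at 0 in both libraries, and there were no un-wounded mast cells.

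Fgf7 was highest in fibroblasts, at 64.4 CPM pooled against 5.26 CPM in pericytes or smooth muscle cells and 0.544 CPM in basal keratinocytes. In pericytes or smooth muscle cells it stood at 54.3 and 11.2 CPM un-wounded, on 10 and 2 UMIs. The wounded libraries had 2.82, 21.3 and 4.70 CPM there, on 16, 6 and 6 UMIs. The 54.3 CPM of un-wounded library 1 lay within the range of fibroblasts over libraries, on few UMIs. Neutrophils had 11.2 CPM, with 9 of the 11 UMIs in wounded library 3. The fibroblast level exceeded the basal one by 6.65 ± 0.41 on the log2 scale (adjusted p = 4.92e-19). Fibroblast Fgf7 stood at 46.1 and 48.3 CPM un-wounded and 74.8, 53.2 and 78.4 CPM wounded. All wounded libraries were higher, as for 18.1% of genes in this class, and the difference of 0.64 ± 0.24 was not called (adjusted p = 0.152, edgeR). Fibroblast clusters differed more than the groups: cluster 13, led by Igfbp2, Stc1, Grem1 and Wnt5a, had 8.47 CPM, and the other 5 clusters had 47.8 to 89.1 CPM. Cluster 13 was low in each library, between 6.30 and 11.9 CPM.

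Fgf10, the sister ligand for the same receptor form, was much sparser and came from fibroblasts too, at 5.12 CPM (counting interval 4.59 to 5.68). It stood at 0.862 and 4.44 CPM un-wounded, on 2 and 64 UMIs, and at 4.29, 7.60 and 5.01 CPM wounded, which overlaps, with a change of 0.83 ± 0.48 (adjusted p = 0.367). Clusters 16 and 21 held it at 14.7 and 14.3 CPM, against 0.616 to 6.34 CPM in the other 4.

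**Figure D4:**
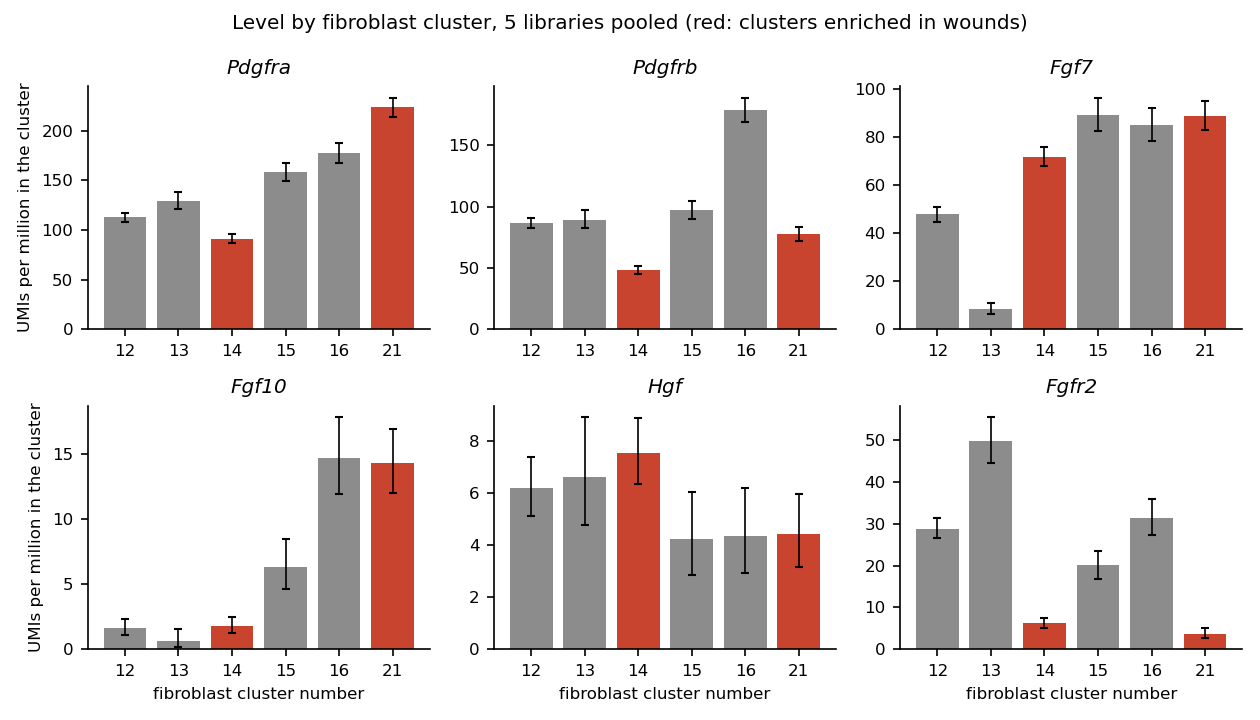
Level of 6 genes in the 6 fibroblast clusters (horizontal axis, cluster number), in CPM of the cluster with 5 libraries pooled; bars show exact Poisson 95% intervals, for counting error only, and red marks clusters 14 and 21, enriched in wounds. Fgf7 is low in cluster 13, where Fgfr2 is highest at 49.8, and Fgfr2 is lowest in clusters 14 and 21.

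Fgfr2, the receptor of both ligands, was highest in basal keratinocytes at 109 CPM, followed by sebocytes (59.2), outer root sheath or bulge keratinocytes (56.8) and spinous keratinocytes (36.5). Ranges over libraries of the first 3 overlapped. Spinous cells were lower than basal cells on the log2 scale (fitted difference -1.5 ± 0.34, adjusted p = 0.000718), and fibroblasts differed from basal cells by -2.12 ± 0.33 (adjusted p = 2.92e-07). In basal keratinocytes Fgfr2 stood at 119 and 119 CPM un-wounded and 98.7, 75.8 and 66.0 CPM wounded. All wounded libraries were lower, as for 20.6% of genes in this class, and the difference of -0.37 ± 0.28 was not called (adjusted p near 1). Spinous keratinocytes gave 44.8 and 38.5 CPM un-wounded and 29.7, 19.0 and 24.2 CPM wounded, also without overlap, as for 20.9% of genes, with a difference of -0.50 ± 0.26 (adjusted p = 0.652). Outer root sheath or bulge keratinocytes had 52.8 and 54.7 CPM un-wounded and 64.7, 72.7 and 43.0 CPM wounded, on both sides.

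In fibroblasts both Fgfr2 and Fgfr3 fell. In that class all of the 10 genes but Pdgfb, 9 in all, could be fitted and 2 were called, both lower, where 7.49% of 13306 genes passed and 1.62% were lower. The median log2 fold change of the 9 was 0.60, against -0.01 over all genes. Fibroblast Fgfr2 stood at 32.8 and 34.2 CPM un-wounded (76 and 492 UMIs) and 16.3, 20.1 and 12.3 CPM wounded (307, 299 and 213 UMIs). The groups were well apart, as for the 22.0% of genes with all wounded libraries lower, and Fgfr2 fell by 0.96 on the log2 scale (fitted change -0.96 ± 0.23, adjusted p = 0.0393). Clusters 14 and 21 had 6.21 and 3.66 CPM, and the other 4 had more, up to the 49.8 CPM of cluster 13. Without clusters 14 and 21 the change was -0.15 (adjusted p = 0.872), and within single clusters it ran from -0.31 to 0.24 with no call. The fall in the summed fibroblasts came with a larger share of 2 clusters low in Fgfr2. With 1 library left out the call was lost in 4 of 5 cases, for the un-wounded libraries 1 and 2 (adjusted p = 0.105 and 0.192) and the wounded libraries 1 and 3 (0.0668 and 0.120).

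Fgfr3, which restrains growth in bone and is found on keratinocytes in skin, was highest in basal and outer root sheath or bulge keratinocytes (51.3 and 50.6 CPM) and spinous keratinocytes (42.1 CPM), whose ranges overlapped. Basal keratinocytes had 45.7 and 80.5 CPM un-wounded and 34.8, 46.2 and 49.3 CPM wounded, with overlap. In fibroblasts it was near the floor, at 4.31 and 4.24 CPM un-wounded (10 and 61 UMIs) and 1.17, 0.404 and 0.806 CPM wounded (22, 6 and 14 UMIs). That was a fall by 2.31 on the log2 scale (fitted change -2.31 ± 0.48, adjusted p = 0.0203), lost without un-wounded library 1 (adjusted p = 0.0541) or 2 (0.156) and without clusters 14 and 21 (-1.97, adjusted p = 0.154). Keratinocyte RNA in the fibroblast sums fell too: all 7 basal keratinocyte markers had UMIs in every library, with a summed level of 1599 and 367 CPM un-wounded and 386, 32.4 and 54.2 CPM wounded. Fibroblast Fgfr3 amounted to 2.70 to 14.9 UMIs per 1000 of those marker UMIs, while basal keratinocytes had at most 4.64. The part of keratinocyte RNA in the Fgfr3 result was not tested.

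Whether wounding acted unequally on the 2 classes was tested as an interaction of class and group, in which 1.59% of 13947 genes and none of the 10 passed with edgeR. An unadjusted p under 0.05 was found for 2 of the 10, Fgfr3 and Pdgfa, against 11.6% of all genes, and no other tool was run. For Fgfr3 the difference was -1.77 ± 0.45 (fibroblasts minus basal keratinocytes, adjusted p = 0.0775, but 0.00290 without wounded library 1 and 0.0433 without wounded library 2, and 0.000823 with no filter on low counts), and for Fgfr2 it was -0.62 ± 0.29 (adjusted p = 0.445).

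In pericytes or smooth muscle cells 3 of the 10 genes (Pdgfa, Pdgfrb and Fgfr2) could be fitted, and beside the rise of Pdgfa, Fgfr2 fell. It stood at 103 and 61.8 CPM un-wounded and at 2.46, 7.10 and 6.27 CPM wounded, far apart, as for the 24.1% of genes with all wounded libraries lower (fitted change -4.41 ± 0.63, adjusted p = 0.00323, edgeR). Within the part with high Myh11 it stood at 107 and 66.3 CPM un-wounded (18 and 11 UMIs). The wounded libraries had 9, 0 and 6 UMIs there, and the 49.9 CPM of wounded library 3 lay near un-wounded library 2. The 7 basal keratinocyte markers also moved with the class as a whole, from 1407 and 578 CPM to 446, 138 and 65.8 CPM, with 5 to 7 of 7 detected per library. Fgfr2 came to 73.4 and 107 UMIs per 1000 of those marker UMIs in un-wounded libraries and 5.53, 51.3 and 95.2 in wounded ones, against 2.57 to 6.84 in basal keratinocytes, and their part in the result was not tested. The un-wounded level rested on 30 UMIs, and 25 of them lay in 3 of 78 cells. Those cells had 294 to 488 UMIs of Acta2 and 33 to 56 of Myh11 each. They had no UMI of Rgs5 or Notch3, other markers of the class that were also found in its part with high Myh11. Without the 2 highest cells of each library, or with a mitochondrial limit of 5%, Fgfr2 no longer passed the filter on low counts.

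**Figure D5:**
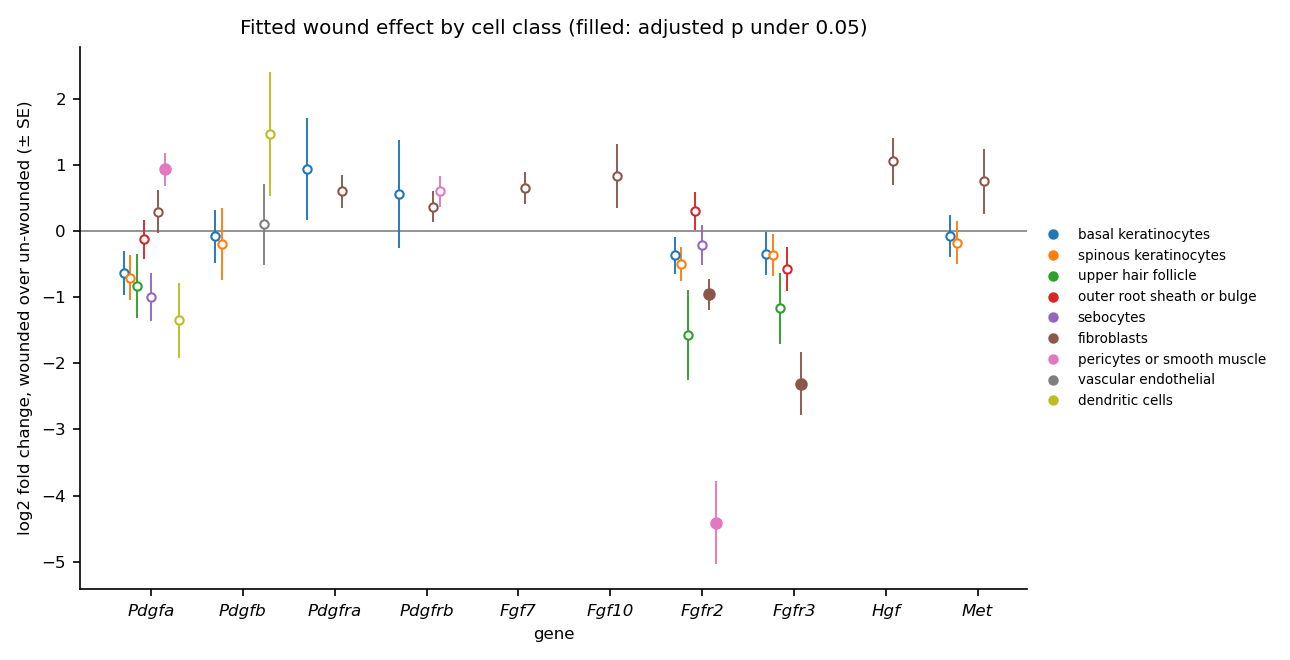
Fitted log2 fold change of wounded over un-wounded skin (vertical axis, ± SE) of each of the 10 genes in each tested class where it passed the filter on low counts; filled points have an adjusted p under 0.05. The 4 filled points are Pdgfa and Fgfr2 in pericytes or smooth muscle cells and Fgfr2 and Fgfr3 in fibroblasts.

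In the other 8 tested classes no gene of the set was called by edgeR or by DESeq2. An unadjusted p under 0.05 in edgeR was found for Fgfr2 and Fgfr3 in upper hair follicle keratinocytes and for Pdgfa in sebocytes and in dendritic cells, all lower in wounded skin, where 3.5%, 4.9% and 17.0% of genes in those 3 classes had one. The background of called genes was 0.54% in basal keratinocytes, 1.74% in spinous keratinocytes, 0.114% in upper hair follicle keratinocytes and 0.784% in outer root sheath or bulge keratinocytes. It was 0.0% in sebocytes, 3.41% in dendritic cells and 0.125% in T or NK cells, where none of the 10 passed the filter.

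Hgf was highest in mast cells and was found at a lower level in other classes, among them fibroblasts and macrophages. Fibroblasts held it thinly, at 3.45 and 3.54 CPM un-wounded (8 and 51 UMIs) and 5.40, 6.26 and 8.69 CPM wounded (102, 93 and 151 UMIs). All wounded libraries were higher, as for 18.1% of genes in fibroblasts. The difference of 1.05 ± 0.35 was not called (adjusted p = 0.113, edgeR), though it passed with no filter on low counts (0.0498). Mast cells, the tissue-resident granulocytes named here by Cma1, Mcpt4, Tpsb2 and Cpa3, held 330 CPM (pooled, counting interval 276 to 390). Mcpt8 and Il4 were also among the leading genes of this cluster. Basophils had no marker list, so they were not separated from it. Per library the mast cell class had 128, 288 and 426 CPM, on 11, 29 and 95 UMIs in 21, 19 and 47 cells of wounded libraries 1, 2 and 3. No such cell was found among 5033 and 5131 un-wounded cells, which allows a share of up to 0.0596% and 0.0585%, so the groups could not be compared. After thinning every cell to 1500 UMIs, 19.0%, 15.8% and 34.0% of mast cells had an Hgf UMI (38.1%, 57.9% and 63.8% before thinning). In T or NK cells of the same libraries, with median depths of 3471 to 3852 UMIs against 3461 to 4402, none did after thinning. Mast cells held 8.4%, 20.7% and 34.8% of wounded Hgf UMIs, and fibroblasts held 77.9%, 66.4% and 55.3%. Macrophages or monocytes held 4.58%, 6.43% and 6.96%, at 3.45, 2.71 and 2.93 CPM (6, 9 and 19 UMIs), a range that overlaps that of fibroblasts over all libraries. In un-wounded libraries they had no UMI in library 1 and 1 UMI in library 2. The 7 fibroblast markers summed to 547 to 1022 CPM in mast cells, and Hgf reached 138 to 779 UMIs per 1000 of those marker UMIs there, against 0.0775 to 0.203 in wounded fibroblasts.

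Met, the HGF receptor, was found in basal keratinocytes at 27.5 and 20.7 CPM un-wounded and 24.6, 22.2 and 13.4 CPM wounded. The groups overlapped, with a difference of -0.08 ± 0.31 (adjusted p near 1). Spinous keratinocytes were lower than basal ones (fitted difference -0.87 ± 0.23, adjusted p = 0.00317, and 0.0848 without wounded library 1). Macrophages or monocytes of the wounded libraries had 27.0, 62.7 and 29.7 CPM, on 47, 208 and 193 UMIs. The 43 such cells of un-wounded skin had no Met UMI, which allows up to 161 CPM in library 1 and 17.0 CPM in library 2, so the wounded levels were above the limit of library 2 and below that of library 1. With cells thinned to 1500 UMIs, 3.47%, 8.92% and 5.58% of wounded macrophages had a Met UMI (11.7%, 25.3% and 14.3% before), against 0% to 0.797% of T or NK cells in those libraries. Because these cells were rare in un-wounded skin, the class was not tested. Macrophages held 8.69%, 61.5% and 56.1% of wounded Met UMIs, and basal keratinocytes held 73.5% and 55.2% of un-wounded ones.

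Summed over all kept cells, as a bulk measure would see it, 0.608% of 15469 genes were called and none of the 10 was, with edgeR. An unadjusted p under 0.05 was found for 4 of the 10, Fgfr2 and Fgfr3 (lower) and Hgf and Pdgfrb (higher), where 25.9% of genes had one. DESeq2 called 3 of the 10. Calls over all genes ran from 0 to 2632 over the alternatives (94 as fitted). The DESeq2 share over all genes is not given here, so its count cannot be set against a background. In such sums fewer cells of a type and less RNA per cell cannot be told apart.

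The other 70 pathway genes were described by their counts. Of 15 ERK feedback and target genes, which are induced when RAS-ERK signalling is active, 3 of 11 fitted rose in spinous keratinocytes (1.66% of all genes rose), 2 of 8 in outer root sheath or bulge keratinocytes (0.701%) and 4 of 15 in fibroblasts (5.86%). In pericytes 1 of 7 fell (8.97%). In basal keratinocytes edgeR called 0 of 13, with an unadjusted p under 0.05 for 3, and DESeq2 called 3. Over all genes, calls in basal keratinocytes ran from 9 to 441 over the alternatives (64 as fitted with edgeR), and the DESeq2 share is not given here. The median log2 fold changes were 0.52, 0.92, 0.19, 0.30 and -0.05 in these classes in turn, against -0.03, 0.00, -0.01, 0.04 and -0.03 over all genes.

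In spinous keratinocytes Phlda1, an ERK-induced gene, rose from 9.71 ± 2.56 to 69.4 ± 16.7 CPM (SD, n = 2 un-wounded and n = 3 wounded here and below, adjusted p = 0.000104 with edgeR). Dusp6, an ERK phosphatase, rose there from 6.21 ± 0.40 to 17.4 ± 6.10 CPM (adjusted p = 0.00937 with edgeR), and the call was lost without un-wounded library 1 or 2 or wounded library 1 (0.176, 0.0790 and 0.0942). Dusp5, a related phosphatase, went from 6.47 ± 0.54 to 14.2 ± 8.73 CPM with overlapping groups (adjusted p = 0.0398 with edgeR, 0.240 with DESeq2). With 1 library left out the Dusp5 call was lost in 4 of 5 cases (un-wounded libraries 1 and 2 and wounded libraries 1 and 3), with an adjusted p of 0.0821 to 0.359.

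In outer root sheath or bulge keratinocytes Dusp6 rose from 55.4 ± 1.24 to 260 ± 57.5 CPM (adjusted p = 0.0101 with edgeR, 0.0891 without un-wounded library 2). Phlda1 rose from 179 ± 51.6 to 746 ± 265 CPM (adjusted p = 0.0343 with edgeR, 0.180 and 0.120 without the first and the second un-wounded library, and 0.0621 without wounded library 3). The ligand Fgf18 fell in the same class from 36.3 ± 6.53 to 6.13 ± 2.48 CPM (adjusted p = 0.0343 with edgeR). That call was lost with DESeq2 (0.0950), without either un-wounded library and without wounded library 2 or 3 (0.0547 to 0.556).

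In fibroblasts 10 of the 51 fitted pathway genes were called, 7 higher and 3 lower, where 7.49% of all genes were called, 5.86% higher and 1.62% lower. The feedback genes that rose were Phlda1 (94.3 ± 4.70 to 541 ± 180 CPM), Spry2, an inhibitor of receptor tyrosine kinase signalling (23.6 ± 3.52 to 66.0 ± 9.43 CPM), Dusp5 (4.03 ± 0.40 to 15.4 ± 3.63 CPM) and Ier3 (194 ± 34.9 to 493 ± 162 CPM). Of 13 other FGF receptors and co-receptors, 1 of 11 fitted rose, the heparan sulphate proteoglycan Gpc1 (2.65 ± 0.51 to 15.6 ± 9.05 CPM), and 1 fell, Fgfr4 (63.1 ± 13.8 to 18.9 ± 8.21 CPM). Of 20 other FGF ligands, 8 passed the filter and 2 rose from near 0, Fgf1 (0.139 ± 0.196 to 2.13 ± 0.61 CPM) and Fgf18 (0.639 ± 0.315 to 4.37 ± 2.33 CPM). Of 11 shared adaptors 1 fell, Pik3r1, a regulatory subunit of PI3K (158 ± 23.8 to 67.6 ± 24.4 CPM). Of 8 genes of HGF activation, 1 of 3 fitted fell, Spint2, an epithelial inhibitor of the proteases that activate HGF (31.9 ± 23.7 to 5.19 ± 3.86 CPM). The basal keratinocyte markers in fibroblasts moved with Spint2, from 1599 and 367 CPM to 386, 32.4 and 54.2 CPM, and their part in its fall was not tested. The adjusted p ran from 0.00327 for Phlda1 to 0.0438 for Pik3r1, with edgeR.

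Without clusters 14 and 21 the log2 fold changes of Phlda1, Spry2 and Ier3 went from 2.63, 1.56 and 1.46 to 0.37, 0.35 and 0.38. Those of Gpc1, Fgfr4 and Pik3r1 went from 2.77, -1.64 and -1.14 to 1.58, -0.61 and -0.47. Dusp5 (2.08 to 1.77) and Spint2 (-2.45 to -2.32) kept nearly the same size, but none of these 8 was called, and Fgf1 and Fgf18 could not be fitted there. Those of Phlda1 and Spry2 were the 2 calls that held with any 1 library left out. The other 8 were lost without un-wounded library 1 (Spint2), un-wounded library 2 (Dusp5) or either of them (Gpc1, Fgf18, Fgf1, Fgfr4, Pik3r1 and Ier3), and some also without a wounded library, with adjusted p between 0.0531 and 0.304.

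In pericytes or smooth muscle cells Spint2 fell from 270 ± 9.27 to 34.2 ± 11.2 CPM (adjusted p = 0.00133 with edgeR). The 7 basal keratinocyte markers moved with it, from 1407 and 578 CPM in un-wounded libraries to 446, 138 and 65.8 CPM in wounded ones, with 5 to 7 of 7 detected per library, and their part in the result was not tested. The ligand Fgf1 fell from 85.8 ± 21.5 to 17.7 ± 3.25 CPM (adjusted p = 0.00513 with edgeR, 0.0574 without un-wounded library 2). Egr1, an immediate early gene, fell from 2061 ± 811 to 777 ± 343 CPM (adjusted p = 0.0420 with edgeR). The Egr1 call was lost without un-wounded library 1 or 2 or wounded library 1 or 3 (0.306, 0.0622, 0.106 and 0.148).

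The 3 other PDGF genes were called in no class, by edgeR or DESeq2, and none had an unadjusted p under 0.05. The most abundant of each list over all cells were Pdgfrl and Pdgfc, Fgf13 and Fgf2, Sdc4 and Fgfbp1, Spint2 and Spint1, Pik3r1 and Grb2, and Egr1 and Ier3.

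By likeness of pattern over the 15 named classes (Pearson correlation of log2(CPM + 1), 9296 genes compared), Pdgfra was nearest to Mfap4 (0.979) and Dcn (0.972), Pdgfrb to Loxl2 (0.955) and C1qtnf2 (0.949), and Fgf7 to Shc2 (0.958) and Olfml1 (0.955). Hgf was nearest to Rprm (0.948) and the mast cell tryptase Tpsab1 (0.942), and Fgfr3 to Capns2 (0.953) and Dmkn (0.944). Lower values were found for Fgfr2 with Rac3 (0.904), Fgf10 with Vimp (0.893), Pdgfa with Zak (0.878), Pdgfb with Slc12a7 (0.741) and Met with Fam213b (0.705). These are descriptions over 15 points that share libraries and depth.

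In the annotation of GRCm38, exons of Pdgfa (chromosome 5, 138976014 to 139000792, minus strand) share bases with 6330403L08Rik on the other strand, and those of Fgfr3 (chromosome 5, 33721724 to 33737068, plus strand) with G630022F23Rik on the other strand. Fgfr2 (chromosome 7, 130162451 to 130266808, minus strand) shares bases with a model of Ctbp2 on the same strand, and Hgf (chromosome 5, 16553495 to 16619439, plus strand) with Gm43489 on the same strand. Pdgfb, Pdgfrb, Fgf7 and Met share none, and Pdgfra and Fgf10 share with small models. How the counting treated shared bases is not given in the sources used here.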

How the data were processed

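The authors deposited unnormalized UMI counts, gene by barcode, for 5 libraries, and the submitters' processing notes name Cell Ranger 1.3.1 and the build mm10; the annotation, and the step that removed shallow barcodes before deposit, are not given in the sources used here. Barcodes under 200 genes or over 10% mitochondrial UMIs were dropped, and the highest Scrublet scores were removed as doublets at 0.8% per 1000 barcodes (scanpy 1.11.5), which removed 1248 cells. Clustering used counts per 10000 on a log scale, the 2000 most variable genes, 30 components, 15 neighbours and Leiden resolution 1.0, without integration. A cluster took the name of the type with the best marker score where 3 or more of its markers were at 10 CPM and it led the runner-up by 0.5, which left 3 clusters unnamed. UMIs were summed per library and class and tested by edgeR's quasi-likelihood method after filterByExpr and TMM (edgeR 4.0.16, R 4.3.3); printed CPM carry no TMM scaling. Alternatives were DESeq2 1.42.0, no TMM, no filter, a replicate block, other cell filters, Leiden resolution 2.0, listed genes kept in the clustering, sums without the 2 highest cells, and each library left out. Fibroblast sums without clusters 14 and 21 and single-cluster sums were added after the data were seen. Counting intervals are exact Poisson (95%), and a count of 0 allows 3 counts; both cover counting error only. The fits were tested on simulated data with equal numbers of genes changed 2-fold and 4-fold. The wound fits by class recovered 3 to 17 of the 2-fold changes, missing most, and 44 to 81 of the 4-fold changes. They also called 0 to 14 unchanged genes. These were 8 in fibroblasts, beside 13 recovered 2-fold and 80 recovered 4-fold changes, and 11 in pericytes or smooth muscle cells, beside 17 and 77. Some calls can thus be false. The fit of whole libraries recovered 0 of either. A gene that was not called is therefore not shown to be unchanged. Named are all 10 genes in the main classes where they reach 10 CPM (others for contrast), each listed pathway gene that passed the wound test, the most abundant of each list, and the nearest genes by pattern. Not every class at 10 CPM is described. Among those left out are Pdgfa in vascular endothelial cells (52.5 CPM on average over libraries) and Met in skeletal muscle cells (15.9 CPM). The genes and lists were chosen with earlier results of these data known. Reference sequences were those of RefSeq, GRCm38.p6.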

Additional observations from a re-analysis of the deposited data

How the results depend on the processing

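Of 748 alternative fits of 52 single-gene results, 629 kept direction and side of the threshold, 106 lost the call, 4 gained it and 9 changed sign. The number of the 10 genes called in fibroblasts (2) was 0 to 2 with 1 library left out, 0 without the wound-enriched clusters 14 and 21, and 0 in each of clusters 12, 13, 15 and 16 alone. In pericytes or smooth muscle cells (2) it was 1 with any 1 library left out, 1 with at most 5% mitochondrial UMIs and 0 without the 2 highest cells of each gene. With no filter on low counts it was 3 in fibroblasts, 3 in pericytes, 1 in dendritic cells, 1 in whole libraries and 2 in the interaction (0 in each of these last 3 before). Whole libraries gave 3 with DESeq2 and 0 to 2 with 1 library left out, and the interaction 0 to 2. The alternatives also moved the calls over all genes: 18 to 901 in dendritic cells (277 as fitted), 0 to 2632 in whole libraries (94) and 79 to 726 in the interaction (222). Shares over all genes under each single setting are not given here, so these counts of the 10 genes cannot be set against a background. Changed in sign were Fgfr2 (0.24, cluster 13 alone), Fgf10 (-0.46), Spry2 (-0.36) and Ier3 (-0.900, all cluster 16 alone) in fibroblasts, Met in basal keratinocytes (0.15 without un-wounded library 1, 0.11 without wounded library 3, from -0.35 to 0.15 with any library left out) and Pdgfb in vascular endothelial cells (-0.19 without un-wounded library 1, -0.08 without wounded library 2, from -0.19 to 1.18). The cause was not tested, beyond fewer cells or libraries in each.

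The labels give libraries 1 and 2 of both groups the same numbers and no shared animal or day. Same-numbered libraries deviated together from their group means (r of 0.47 and 0.43 over genes in whole libraries). With the number as a replicate block, Met in basal keratinocytes changed sign (0.039), and no call of the 10 genes was gained or lost. Over all genes, calls in fibroblasts ran from 28 to 1917 (996 as fitted) and in pericytes from 251 to 1200 (689) over the alternatives. Shares and levels with no test, such as Hgf in mast cells (281 CPM on average, 208 to 357 with 1 wounded library left out), moved by less than 1 SD. The Pdgfb share of wounded macrophages or monocytes went from 32.4% to 17.8% at Leiden resolution 2.0. The few un-wounded macrophages, mast cells and pericytes limit what could be compared.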
